A study of Homo sapiens with 6 samples.

Results

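The distal part of chromosome band 21q22, the band that carries the genes of collagen VI and collagen XVIII near the end of the long arm of chromosome 21, was described by its regions of histone H2A.Z. Overlapping or touching peaks of ubiquitylated and of total H2A.Z were merged, and the merged regions with a midpoint in chr21:43000000-48130000 (hg19) were kept, which gave 1837 of 198179 regions. The members were chosen by peak position, and the stretch was proposed with the direction of its regions in these data already known. Its directions, fold changes and peak classes are therefore given as a description, with no test.

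The study used HEK293T, an established human embryonic kidney line. Every sample came from this line and, per the labels' protocols, the transfected cells expressed H2A.Z-1 with Flag and the biotin ligase BirA at its C-terminus together with ubiquitin that carried an N-terminal AviTag, the peptide that BirA biotinylates. Cells were collected 48 hours after transfection and their nuclei were treated with micrococcal nuclease, which cuts between nucleosomes, for 30 minutes. Streptavidin recovered ubiquitylated H2A.Z (2 samples), the Flag antibody recovered total tagged H2A.Z (2 samples) and an antibody to histone H3 gave a control (2 samples). The tagged histone was supplied from a plasmid, so the pull-downs report on transfected H2A.Z-1 and not on the histone of the cell's own genes. The labels do not say whether replicates were separate cultures.

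Dedicated remodelling complexes place H2A.Z, which replaces canonical H2A in some nucleosomes, at promoters, enhancers and other regulatory sites. Its C-terminal tail can receive a single ubiquitin from the RING1 ligases of Polycomb complexes, and the ubiquitylated form is known from silent chromatin such as the inactive X chromosome. Collagen VI forms beaded filaments in the matrix around muscle and other cells, and its genes COL6A1 and COL6A2 lie side by side. Collagen XVIII, encoded by COL18A1, is a collagen of basement membranes whose C-terminal part is released as endostatin.

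In the RefSeq annotation of GRCh38.p14, COL18A1, COL6A1 and COL6A2 are among the last 16 of the 239 protein-coding genes of chromosome 21. The order towards the chromosome end is COL18A1, the folate carrier gene SLC19A1, PCBP3, COL6A1, COL6A2 and FTCD, an enzyme of histidine breakdown, and the last gene is the arginine methyltransferase gene PRMT2. All 53 genes listed for the band were found on chromosome 21 there. They include the trefoil factors TFF1, TFF2 and TFF3 of mucosal surfaces, CBS of sulfur amino acid metabolism, the splicing factor gene U2AF1, the ubiquitin-conjugating enzyme gene UBE2G2 and the ubiquitin-like modifier gene SUMO3. The band also holds 12 KRTAP10 and 4 KRTAP12 genes of hair keratin-associated proteins. The peak lists use hg19, of which no genome or annotation was used here, so no region was assigned to a gene and the collagen genes in the name of the stretch could not be checked against the regions.

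The sequence before the start sites of COL6A2 and COL18A1 is shown as context for how GC-rich these genes' promoters are. The promoter sequences used held none for COL6A1, so it is not shown. Each run is the 250 bases before a RefSeq start site in GRCh38.p14, plus strand, 5′ to 3′, with every CG dinucleotide in capitals. The dinucleotide reads the same on both strands. Whether an H2A.Z region covers any of them was not determined. The coordinates of these 3 windows are GRCh38.p14 and cannot be set against the hg19 coordinates used elsewhere. COL6A2 lies at chr21:46097862-46098111, the first COL18A1 start at chr21:45404915-45405164 and the second at chr21:45455272-45455521.
COL6A2: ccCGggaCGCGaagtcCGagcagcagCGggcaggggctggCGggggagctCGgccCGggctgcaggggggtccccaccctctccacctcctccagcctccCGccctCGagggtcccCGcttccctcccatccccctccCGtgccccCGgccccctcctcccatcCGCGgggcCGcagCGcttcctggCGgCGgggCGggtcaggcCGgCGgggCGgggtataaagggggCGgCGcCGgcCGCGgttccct
COL18A1 first start: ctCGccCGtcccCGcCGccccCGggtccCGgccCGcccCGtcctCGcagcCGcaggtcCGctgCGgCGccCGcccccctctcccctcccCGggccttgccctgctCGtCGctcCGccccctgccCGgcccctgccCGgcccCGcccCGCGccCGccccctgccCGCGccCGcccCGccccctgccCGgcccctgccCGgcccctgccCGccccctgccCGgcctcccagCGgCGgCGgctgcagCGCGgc
COL18A1 second start: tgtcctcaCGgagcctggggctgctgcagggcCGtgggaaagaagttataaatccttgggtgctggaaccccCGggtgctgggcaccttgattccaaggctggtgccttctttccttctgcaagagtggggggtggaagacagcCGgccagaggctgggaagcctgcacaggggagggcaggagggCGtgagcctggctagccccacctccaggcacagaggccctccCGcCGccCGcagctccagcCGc

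The COL6A2 window held 28 CG dinucleotides and a GC content of 79.6%. The first COL18A1 window held 37, with a GC content of 88.4%, and the second held 9, with 66.4%. Over 35116 RefSeq promoter windows of this length the median was 11.0, and 93.9% held at least 1. Over the 56 windows of the genes listed for the band the median was 29.0, close to the value at COL6A2, and 100% held at least 1. The listed genes were picked by name, include these collagen genes and leave out the KRTAP10 and KRTAP12 genes. Their median therefore does not describe all promoters of the band. At least as many CG dinucleotides as at COL6A2 were found in 15.9% of all windows. The share with at least as many as at the first COL18A1 start was 4.0%, and as at the second 54.1%. The 2 start sites of COL18A1 thus lie in very different sequence.

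Where the pull-downs differed in the stretch, the signal was mostly higher in that of ubiquitylated H2A.Z. Total H2A.Z includes the ubiquitylated form. Higher in ubiquitylated H2A.Z therefore means a relatively higher signal in that pull-down, not more molecules. The authors' deposited table lists 294 of the 1837 members as higher in ubiquitylated H2A.Z (16.0%, Wilson 95% interval 14.4 to 17.8%), where 9.39% of all merged regions were. It lists 106 members as higher in total H2A.Z (5.77%, 4.79 to 6.93%), where 12.1% of all merged regions were. The ubiquitylated pull-down was thus the relatively higher one at 73.5% of the 400 differential members (69.0 to 77.6%). This direction share was 43.7% over all merged regions and 48.9% on the rest of chromosome 21 (159 of 325). The share of regions that were differential at all was near the background, with 21.8% of members and 21.5% of all merged regions. The remaining 1437 members were in neither differential list. Since the stretch was proposed with these directions known, nothing is read from the gap to the background. The intervals take regions as independent, although neighbours moved together, and cover counting error only. Streptavidin and the Flag antibody are different reagents, and what the reagent contributes and what ubiquitylation contributes cannot be told apart in this design.

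The size of the fold changes was close to that elsewhere. The values are the authors' own, read as log2 although the base is not stated. By the authors' deposited table, the log2 fold change of members higher in ubiquitylated H2A.Z had a median of 0.66 (quartiles 0.49 and 0.88, range 0.33 to 2.03), beside 0.68 over all merged regions of that direction. In the authors' deposited table those higher in total H2A.Z had a median of -0.68 (quartiles -0.82 and -0.54, extreme -1.69), beside -0.76 over all merged regions of that direction. A change of 2-fold or more in the authors' deposited table was listed for 45 members towards ubiquitylated H2A.Z (2.45%, beside 1.47% of all merged regions). Towards total H2A.Z there were 15 (0.817%, beside 2.39% of all merged regions). These shares are of all members, so they also reflect how many regions leaned each way. Within each direction the counts were 45 of 294 and 15 of 106, beside 2908 of 18614 and 4738 of 23960 genome-wide. All fold changes given are of regions that had already passed the FDR limit.

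The peak lists themselves differed in the same manner. The stretch held 1633 ubiquitylated and 1378 total H2A.Z peaks, a ratio of 1.19, where the ratio was 1.04 on the rest of chromosome 21 and 0.999 over both lists. Members with peaks of both lists numbered 1036 (56.4%), against 41.9% of all merged regions. Members with ubiquitylated peaks only numbered 531 (28.9%), the same share as the 28.9% of all merged regions. Members with total H2A.Z peaks only numbered 270 (14.7%), against 29.2% of all merged regions. The stretch thus had fewer regions seen with the Flag antibody alone and more regions seen with both reagents.

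The directions followed these classes. Of the 531 members with ubiquitylated peaks only, 212 (39.9%) were differential, all towards ubiquitylated H2A.Z, where 23.8% of such regions were genome-wide. Of the 270 members with total peaks only, 69 (25.6%) were differential, all towards total H2A.Z, where 30.5% of such regions were genome-wide. Among the 1036 members with peaks of both lists, 82 (7.92%) leaned to ubiquitylated H2A.Z and 37 (3.57%) leaned to total H2A.Z, beside 5.97% and 7.52% genome-wide. Peak class and direction come from the same libraries and are not separate evidence. Among members higher in ubiquitylated H2A.Z, the authors' deposited table gave a median of 0.80 (log2 fold change) where only ubiquitylated peaks were called and 0.44 where both were.

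The 2 directions were not spread evenly along the stretch. From 43 to 44 Mb, 34 of 75 differential members (45.3%, Wilson interval 34.6 to 56.6%) were higher in ubiquitylated H2A.Z, close to the 43.7% of all merged regions. Beyond 44 Mb the share was 260 of 325 (80.0%, 75.3 to 84.0%). Per 1 Mb it was 75.8% from 44 to 45 Mb, 78.6% from 45 to 46 Mb, 90.3% from 46 to 47 Mb (93 of 103) and 72.6% from 47 to 48 Mb. From 44 to 45 Mb, the first 500 kb was near an even split (10 of 19, 52.6%) and the next 500 kb was not (86.0%). The even balance thus did not end at 44 Mb. The short window beyond 48 Mb had 1 of 3. The direction share was highest from 46 to 47 Mb.

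The inner and outer parts differed on both sides of the comparison. Regions higher in ubiquitylated H2A.Z made up 7.08% of 480 members in the inner 1 Mb and 19.2% of 1357 members beyond it. Regions higher in total H2A.Z made up 8.54% and 4.79%. The share of members with total peaks only was 21.7% in the inner 1 Mb and 12.2% beyond it, and the share with ubiquitylated peaks only was 20.8% and 31.8%. This division was noticed in the windows, so it was not tested.

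**Figure D1:**
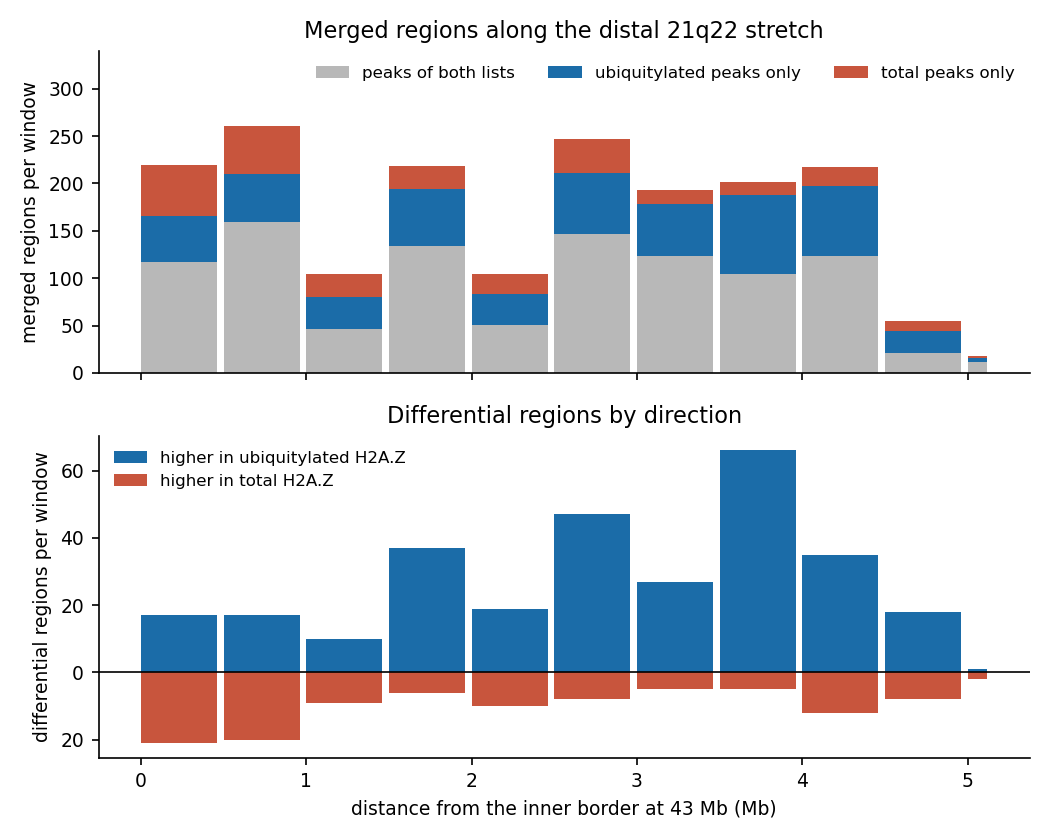
Merged regions of the stretch in windows of 500 kb (the last window is shorter), against the distance in Mb from the inner border at 43 Mb. The upper bars stack regions by peak list, and the lower bars count differential regions higher in ubiquitylated H2A.Z (upwards) and in total H2A.Z (downwards). The downward bars exceed the upward bars in the first 2 windows (21 against 17 and 20 against 17) and in the short last window (2 against 1), and the tallest upward bar is 66 regions in the window from 46.5 to 47.0 Mb.

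The windows of 500 kb showed where the members were concentrated. The window from 43.5 to 44 Mb had the most members (261) and that from 45.5 to 46.0 Mb had 247. The windows from 44 to 44.5 Mb and from 45.0 to 45.5 Mb held 104 each, and that from 47.5 to 48.0 Mb held 55. A high number of members did not go with a high share of either direction: the window with the most members had 6.51% higher in ubiquitylated H2A.Z, and the window from 46.5 to 47.0 Mb, with 201 members, had 32.8%. At the border, the regions just inside were chr21:43016786-43017004 and chr21:43018827-43019220. Those just outside were chr21:42952825-42953026 and chr21:42953242-42954064, and all 4 were in neither differential list.

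**Figure D2:**
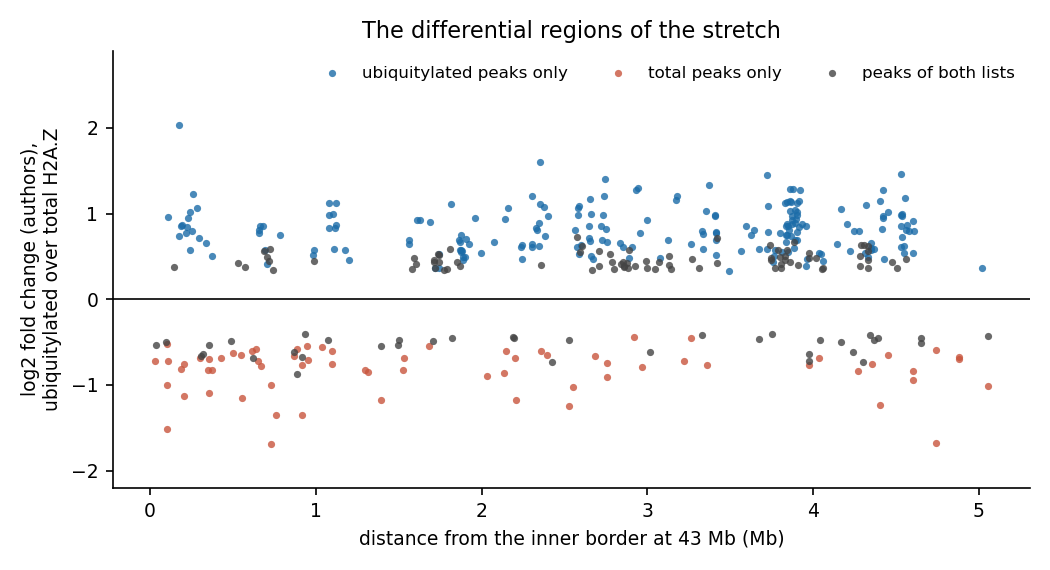
The authors' log2 fold change of ubiquitylated over total H2A.Z for the 400 differential members, against the distance in Mb from the inner border at 43 Mb. Each point is 1 merged region, coloured by the peak list it holds; points of regions with peaks of both lists lie nearest to 0 on the upper side (median 0.44), and those with ubiquitylated peaks only lie higher (median 0.80).

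The 6 regions of smallest FDR were higher in ubiquitylated H2A.Z and lay beyond 46 Mb. The smallest FDR of the stretch in the authors' deposited table belonged to chr21:46843681-46845279, 1599 bp wide (log2 fold change 1.13, FDR 1.6e-11). Next in the authors' deposited table came chr21:47421824-47422958 (1.27, FDR 2.8e-10) and chr21:47551541-47552535 (1.18, FDR 4.1e-10). Each of these regions held a single ubiquitylated peak and no peak of total H2A.Z. The next in this direction were chr21:47165760-47166917, chr21:46874853-46876498, chr21:46409894-46411132, chr21:47529582-47530204 and chr21:47403871-47404570, with log2 fold changes from 0.97 to 1.46 in the authors' deposited table. All 8 held a peak of the ubiquitylated list alone. The largest change in this direction was at a short region in the inner part, chr21:43176629-43176864, 236 bp wide, which the authors' deposited table lists at 2.03 (log2; 4.09-fold, FDR 7.3e-06). Its peak had an IDR of 0.0472, close to the limit of 0.05 that the list allows. The second largest, chr21:45353629-45353880 (1.60, FDR 1.1e-05 in the authors' deposited table), had an IDR of 4.7e-04. Then came chr21:47529582-47530204 at 1.46, chr21:46723053-46723432 at 1.45 and chr21:45745931-45746151 at 1.40 in the authors' deposited table.

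Regions higher in total H2A.Z were fewer but some were as strong. The smallest FDR in this direction in the authors' deposited table was that of chr21:43099304-43099677 (log2 fold change -1.51, 2.84-fold, FDR 4.2e-08), which ranked just behind the leading ubiquitylated regions. The next in the authors' deposited table were chr21:47604447-47605023 (-0.94, FDR 1.2e-07), chr21:45208676-45209182 (-1.17, FDR 1.9e-07) and chr21:43917104-43917352 (-1.35, FDR 2.0e-07). The largest changes were at chr21:43730012-43730286 (-1.69) and chr21:47744078-47744340 (-1.68) in the authors' deposited table. The 6 named here, with chr21:43098741-43099181 and chr21:47401177-47401443 were the 8 of smallest FDR. Of the 8, 4 lay in the inner 1 Mb, where none of the 8 of the opposite direction lay. The inner 1 Mb held 41 of all 106 members higher in total H2A.Z and 34 of all 294 higher in ubiquitylated H2A.Z. With so few regions, no difference in place is read from these counts. All 8 held a peak of the total list alone, and all but 2 were under 500 bp wide. The fifth largest change, chr21:43760378-43760559, was the shortest of these regions with 182 bp (-1.35, FDR 0.0010 in the authors' deposited table).

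Differential regions of 1 direction followed each other along the stretch. In order of position, the 400 differential members formed 97 series with no region of the opposite direction between them. Of these, 19 series of 5 or more regions were higher in ubiquitylated H2A.Z and held 239 regions, and 4 such series were higher in total H2A.Z and held 31. Neighbouring differential members shared a direction in 75.9% of 399 pairs, beside 72.5% of pairs genome-wide and 72.2% on the rest of chromosome 21. Agreement between neighbours was thus near the background, and an uneven balance of directions by itself raises it.

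The longest series ran over chr21:46755693-46966389 (211 kb) and held 52 regions higher in ubiquitylated H2A.Z. Genome-wide, 26 of 5875 series of this direction were at least as long. Its span held 122 members, of which 52 (42.6%) were differential and 70 were in neither differential list. Of all members 21.8% were differential, and a series picked as the longest is rich in such regions by construction. It held 120 ubiquitylated and 66 total H2A.Z peaks. Of its 122 members, 5 had total peaks alone, beside 270 (14.7%) of all 1837 members. A series has no region higher in total H2A.Z inside it, so its low number of total peaks is partly fixed by construction. The authors' deposited table gave its 52 regions a median of 0.78 on the log2 scale (quartiles 0.55 and 0.98, range 0.36 to 1.29). Of the 52 regions, 34 had an FDR under 0.01 in the authors' deposited table and 12 were changed 2-fold or more. Of all 294 members of this direction these were 155 and 45, and of the 18614 such regions genome-wide 10230 and 2908. The region of smallest FDR of the whole stretch lay in this series, as did chr21:46874853-46876498.

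The series was not uniform, as 4 equal parts of its span showed. In the part nearest the centromere, 9 of 42 members (21.4%) were higher in ubiquitylated H2A.Z, and the authors' deposited table gave them a median of 0.49 (log2). In the next part these were 16 of 40 members (median 0.75 in the authors' deposited table). In the third they were 21 of 30 members (70.0%), with a median of 0.94 in the authors' deposited table, and 8 of the 12 regions changed 2-fold or more lay there. The last had 10 members, of which 6 were higher in ubiquitylated H2A.Z (median 0.84 in the authors' deposited table). Members thinned out along the series while the differential share and the fold changes went up to the third of these parts. Just before the first region lay chr21:46752870-46754013, higher in total H2A.Z (-0.40, FDR 0.0130 in the authors' deposited table). After the last lay a group of 3 regions higher in total H2A.Z, from chr21:46974442-46974641 to chr21:46976216-46976403, which the authors' deposited table lists at -0.77, -0.72 and -0.64.

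**Figure D3:**
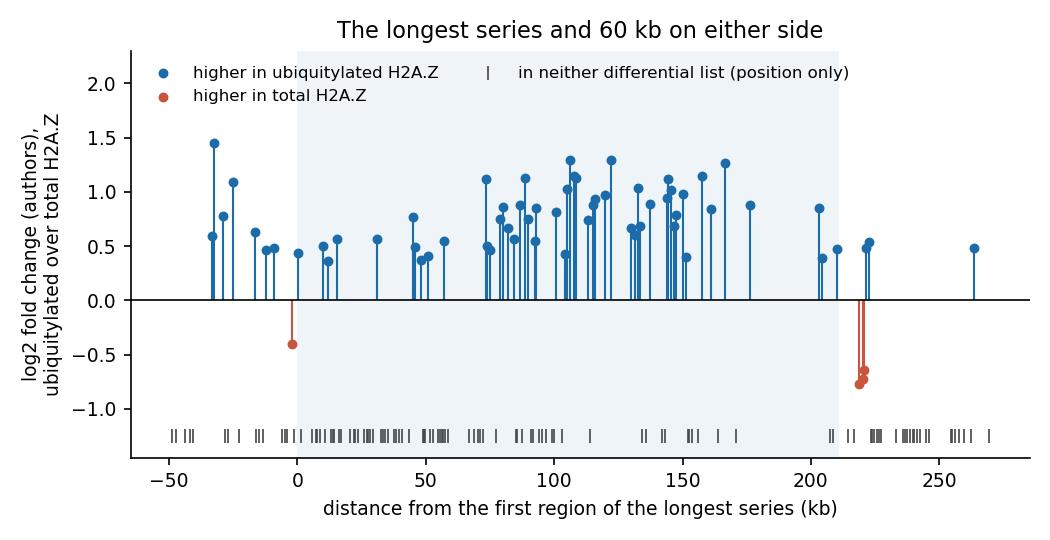
Members in the longest series (shaded, 211 kb) and 60 kb on either side, against the distance in kb from its first region. Stems give the authors' log2 fold change of each differential member, and ticks at the bottom mark the position of members in neither differential list. Of 4 equal parts of the shaded span, the part at the left has no stem of 1 or more and the third has 8.

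Series of ubiquitylated H2A.Z with 12 or more regions all lay beyond 44.5 Mb, and 4 series of 5 to 9 regions lay before it. The second longest held 19 regions over chr21:47454658-47603206 (149 kb), for which the authors' deposited table gave a median of 0.81 and a highest value of 1.46 (log2). It ended next to chr21:47603889-47604320 and chr21:47604447-47605023, both higher in total H2A.Z. A series of 18 ran over chr21:45564045-45670764 (median 0.69 in the authors' deposited table), a series of 16 over chr21:44852325-44994962 (0.56) and a series of 15 over chr21:46370286-46672709 (0.75). The series over chr21:47403871-47431423 was short, with 6 regions in 27.6 kb, but had the highest median of the series of 5 or more, 0.96 in the authors' deposited table. All 7 members in its span held ubiquitylated peaks only, and 6 of the 7 were differential. Just before it lay chr21:47401177-47401443, higher in total H2A.Z (-1.23, FDR 2.5e-06 in the authors' deposited table). Some series were made of weak changes at wide regions: the 13 regions over chr21:44710663-44813858 had a median of 0.44 in the authors' deposited table, and 59.4% of that span was covered by members.

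The series of total H2A.Z were shorter and lay towards both ends of the stretch. The longest held 10 regions over chr21:43868753-43951112 (median -0.66 in the authors' deposited table), and 578 of 5865 such series genome-wide were at least as long. A series of 8 ran over chr21:44298871-44530982 (-0.75), a series of 7 over chr21:43026990-43108434 (-0.72) and a series of 6 over chr21:47648172-47879950 (-0.63), each in the authors' deposited table. The last of these spanned 232 kb with only 9 members, so its regions were far apart.

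Regions of opposite direction could also lie close together. Of 96 neighbouring differential pairs under 1 kb apart, 86 shared a direction (89.6%; genome-wide 93.5%) and 10 did not. At 1 to 10 kb the share was 79.3% of 169 pairs (genome-wide 73.2%), and at 10 kb or more it was 61.9% of 134 (genome-wide 66.5%). These gaps to the genome-wide shares rest on 10, 35 and 51 opposite pairs in the stretch. They carry no interval, so no pattern by distance is read from them. In the closest opposite pair, chr21:46976216-46976403 (-0.64) and chr21:46976511-46977858 (0.48) were 107 bp apart in the authors' deposited table. The pair with the smallest FDR was chr21:47165760-47166917 (1.05, FDR 9.7e-10) and chr21:47167263-47168891 (-0.50, FDR 4.0e-04 in the authors' deposited table), 345 bp apart. At chr21:46264229-46264559, chr21:46265370-46266107 and chr21:46266367-46267095 the direction switched from ubiquitylated (0.64) to total (-0.45) and back (0.47) within 3 neighbouring regions in the authors' deposited table.

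Members of the stretch were wider and closer together than merged regions at large. The median width was 401 bp (quartiles 262 and 671), against 313 bp over all merged regions and 269 bp on the rest of chromosome 21. Regions of 1500 bp or more made up 4.57% of members (84), 1.47% of all merged regions and 0.573% of the rest of chromosome 21 (11). The median distance to the next member was 590 bp, against 2161 bp between all merged regions and 3412 bp on the rest of chromosome 21. The members covered 1021 kb, and the remaining 1921 regions of chromosome 21 covered 661 kb.

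The 5 widest regions held peaks of both forms, and all but 1 of them were in neither differential list. The widest member, chr21:44588224-44593901 (5678 bp), held 3 peaks of each list and was in neither differential list. The same held for chr21:44762615-44767659 (5045 bp), chr21:44798241-44802413 (4173 bp) and chr21:47572253-47576155 (3903 bp), which also held several peaks of both lists. The exception among the 5 widest was chr21:46744382-46748967 (4586 bp), which was higher in ubiquitylated H2A.Z (log2 fold change 0.48, FDR 9.6e-05 in the authors' deposited table). Of the 84 members of 1500 bp or more, 76 held peaks of both lists. Among these 84, 23 (27.4%, beside 16.0% of all members) leaned to ubiquitylated H2A.Z and 1 to the total form. The other 60 were in neither differential list, a smaller share than the 1437 of all 1837 members. Of all 2919 merged regions this wide, 990 (33.9%) leaned to ubiquitylated H2A.Z and 242 to the total form.

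Direction went with width. Among members under 300 bp, the direction share was 63.6% (49 of 77), and among those of 1200 bp or more it was 95.5% (42 of 44). Over all merged regions the share went from 33.2% to 74.9% between the same classes, so the order by width was found genome-wide as well. The rest of chromosome 21 had 44.4% and 57.1%. Members exceeded the genome-wide share in each of the 4 classes of width. Wider regions had smaller fold changes: on the ubiquitylated side the medians in the authors' deposited table were 0.87 under 300 bp and 0.44 at 1200 bp or more (log2). Across the 294 members of that direction, width and the size of the change had a Spearman rho of -0.54, and across the 106 of the other direction -0.61. Regions are not independent replicates, and each of them had passed the FDR limit, so both values are descriptions.

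**Figure D4:**
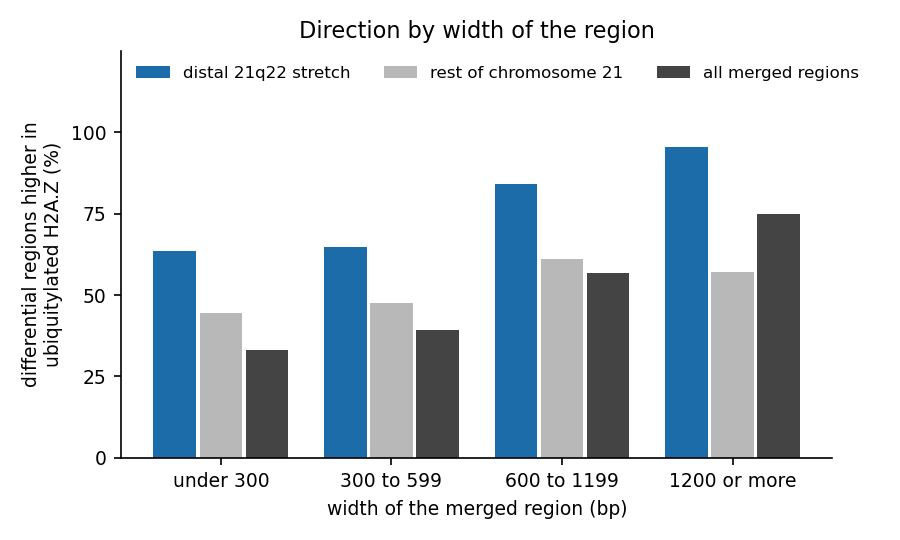
Direction share in percent (differential regions listed as higher in ubiquitylated H2A.Z), by width of the merged region in bp. Bars are the distal 21q22 stretch, the rest of chromosome 21 and all merged regions; the bars of the stretch go from 63.6% under 300 bp to 95.5% at 1200 bp or more and are the tallest in each class.

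The stretch was compared with stretches of the same length, 5.13 Mb, at the long-arm ends of the other 21 autosomes, each counted back from the last merged region in the files. Its direction share of 73.5% ranked 13 of 22. The other ends ranged from 19.1% on chromosome 3 to 94.4% on chromosome 10, with a median of 75.1%, and 16 of the 21 were above 50%. The intervals of 8 ends lay wholly above that of chromosome 21, those of 6 wholly below it, and 7 overlapped it. Its neighbours in the order, chromosome 14 (74.4%, 69.2 to 79.0%) and chromosome 16 (72.8%, 68.0 to 77.1%), did not differ from it beyond their intervals. The lean of the stretch to ubiquitylated H2A.Z was thus in the middle of the range of long-arm ends.

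Other properties of the stretch ranked as follows among the 22 ends. Its 358 merged regions per Mb ranked 4, where the other ends ranged from 21.2 to 389 with a median of 254. Its median width of 401 bp ranked 7, with other ends from 275 to 472 bp. The 16.0% of members higher in ubiquitylated H2A.Z ranked 13 (other ends 3.32 to 30.3%), and the 5.77% higher in total H2A.Z ranked 10 (other ends 1.37 to 14%). Density of H2A.Z regions was therefore the measure in which the stretch stood nearest to the top.

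**Figure D5:**
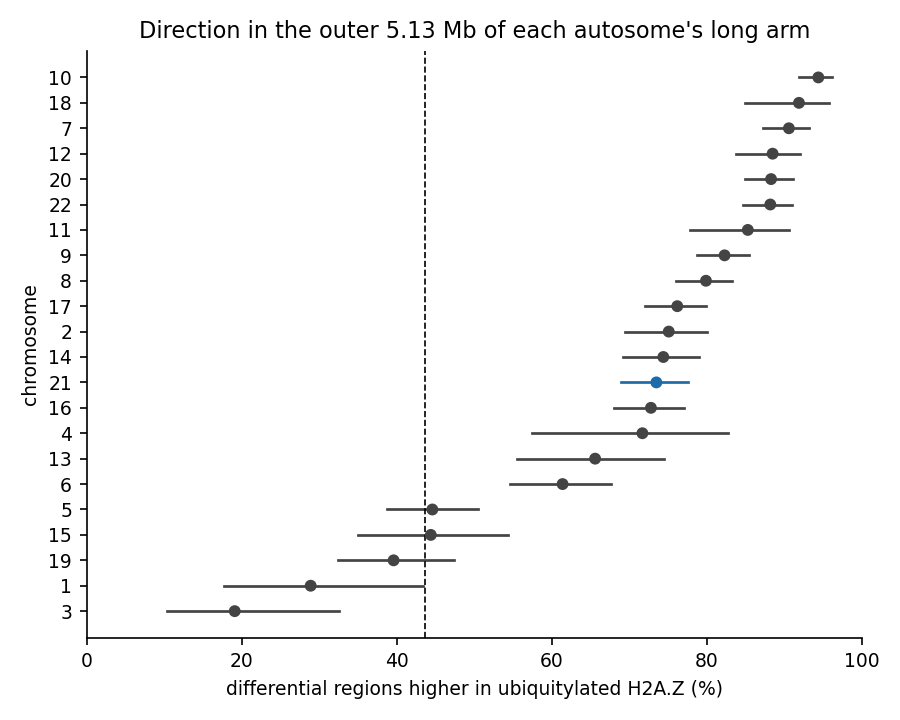
Direction share in percent (differential regions listed as higher in ubiquitylated H2A.Z) in the outer 5.13 Mb of each autosome's long arm, ordered by value. Points are shares, lines are Wilson 95% intervals (counting error only) and the dashed line is the 43.7% of all merged regions; chromosome 21, in blue, stands at 73.5% among the middle values.

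Peaks of the stretch repeated somewhat better between replicates than those of the whole lists. The IDR, the authors' measure of how poorly a peak repeats, had a median of 9.5e-04 for ubiquitylated peaks in the stretch and 0.00137 over the whole list. For total H2A.Z the medians were 0.00289 and 0.00335. An IDR under 0.01 was listed for 88.5% of ubiquitylated peaks of the stretch (83.1% of the whole list) and for 78.4% of total H2A.Z peaks (74.1%). The rest of chromosome 21 lay between the stretch and the whole lists. Its medians were 0.00107 for ubiquitylated and 0.00310 for total H2A.Z peaks, with 86.8% and 75.8% under 0.01. The ubiquitylated peaks of lowest IDR lay in chr21:44002981-44003220 (7.7e-08), chr21:46449244-46450369 (1.3e-07) and chr21:44848946-44849239 (2.3e-07). The total H2A.Z peaks of lowest IDR lay in chr21:46976216-46976403 (4.4e-06), chr21:44629640-44630733 (5.3e-06) and chr21:46783606-46784060 (9.3e-06). All 6 regions held peaks of both lists, and 5 of them were in neither differential list. The sixth, chr21:46976216-46976403, is the total H2A.Z region of the closest opposite pair. Of all members with peaks of both lists, 88.5% were in neither differential list (86.5% genome-wide), so the 5 of 6 are near the background.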

How the data were processed

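ChIP-seq of ubiquitylated H2A.Z, total H2A.Z and H3 was done in HEK293T cells. Bowtie, SAMtools, MACS2, edgeR and the build hg19 are named in the submitters' processing notes; no version or setting appears there. For each H2A.Z form a peak list was deposited, whose column of values up to 0.05 behaves like a q-value and was taken to be the IDR. Differential regions were deposited in 2 further lists with a fold change, taken to be log2 from the tools in those notes, and an FDR of at most 0.05. How the authors normalized libraries is not stated in any source read here. Neither counts nor library values are in these files, so the depth is unknown, no replicate error can be given and no model was fitted. The H3 libraries enter no comparison.

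Starts were raised by 1 base, and 1 start in scientific notation was read as a whole number. Peaks of both lists were merged where they overlapped or touched, and all 42574 differential regions matched a merged region exactly. Members and lists were chosen with earlier results of these data known. Named regions are the 8 of smallest FDR and 5 of largest change in each direction, the 5 widest, the 3 of lowest IDR in each peak list, the ends of series of 5 or more and the regions at the border. For the series of 5 or more, the text names the longest by their ends, with their neighbours. The close opposite pairs named were chosen after their values were seen. Wilson intervals are at 95%. The steps were tested on simulated data. Python 3.11.15, numpy 2.4.6, pandas 2.3.3, statsmodels 0.14.6 and matplotlib 3.10.9 were used. Alternatives covered the FDR, IDR and fold limits, peak class, the borders and the merging of neighbours.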

Additional observations from a re-analysis of the deposited data

How the results depend on the processing

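No paired analysis was possible because each peak or region has a single deposited value that pools the replicates. Leaving out each replicate was therefore not run. The 5 alternatives by width and without the longest series were added after seeing the data. Of 47 alternatives, 21 stayed within the interval of the main value, or within 1.5 times for densities and series, and 26 moved beyond it. A reversal was counted as a change of sign, which none of these measures can show, so the absence of reversals carries no information. All 11 direction shares stayed above 50%.

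The direction share of 73.5% was 68.9% with peaks of both lists, 80.0% with the inner border at 44 Mb, 80.8% as a share of bases, 87.3% at widths of 600 bp or more and 64.5% below (all merged regions: 60.3% and 36.8%). With an FDR under 0.01, a log2 fold change of at least 1, or peaks of both lists, fewer regions qualify by construction: members higher in ubiquitylated H2A.Z were then 8.44%, 2.45% and 7.92%, and those higher in total H2A.Z 3.16%, 0.817% and 3.57%. With the border at 44 Mb these were 19.2% and 4.79%. Members higher in ubiquitylated H2A.Z were 13.2% with neighbours under 1 kb joined and 14.1% without the longest series. Median log2 fold changes were 0.86 and -0.75 at an FDR under 0.01, and 0.44 and -0.50 with peaks of both lists. Members with ubiquitylated peaks only were 38.1% with peaks of IDR under 0.01 and 31.8% from 44 Mb; those with total peaks only were 16.6% and 12.2%. The median width was 450 bp with peaks up to 150 bp apart merged and 434 bp from 44 Mb. With only changes of 2-fold or more kept, series were formed anew and the longest held 27 regions. It runs across weaker regions of the opposite direction. It is thus not the series of 52 regions, of which 12 were changed 2-fold or more. The cause of the other moves was not tested.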

Other observations

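Most members were simple: 1506 of the 1837 held a single ubiquitylated peak and 1242 a single total H2A.Z peak, while 61 held 2 or 3 ubiquitylated peaks and 64 held 2 to 4 total H2A.Z peaks. The longest intervals without a merged region in the lists used here lay near the chromosome end, at chr21:47879951-48017498 (138 kb) and chr21:47745252-47878012 (133 kb). The third was chr21:44395914-44494348 (98.4 kb), inside the series of 8 regions higher in total H2A.Z. The last member of the stretch was chr21:48119271-48119553, which held a ubiquitylated peak only and was in neither differential list.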
